A study of Mus musculus with 11 samples.

Results

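The comparison was doxorubicin by either schedule against phosphate-buffered saline (PBS) in leptin receptor lineage stromal cells of mouse bone marrow. All 11 libraries of the series were used. The treated group, called DOX here, held 7 libraries: 3 from mice given 1 intravenous injection at 10 mg/kg (DOX1X, 10 mg/kg in total) and 4 from mice that received 5 mg/kg weekly, 4 times over (DOX4X, 20 mg/kg in total). The control group held 4 libraries from mice given 4 intravenous injections of PBS. Every mouse was female and carried Lepr-Cre;LSL-tdTomato+/-, in which Cre driven from the leptin receptor gene removes a stop cassette and switches on a red reporter. The reporter stays on in descendants of a cell that once expressed Cre, so the sort can hold osteoblast and adipocyte descendants as well as the progenitors themselves. The labels give an age of 8 to 10 weeks for DOX4X and describe DOX1X only as young adults, and cells were sorted by tdTomato 8 weeks after treatment. No age in weeks was recorded for PBS, so whether the ages of the groups matched cannot be told here.

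Doxorubicin, an anthracycline, traps topoisomerase II on DNA, which leaves double-strand breaks. The stromal cells studied here surround marrow sinusoids, supply Cxcl12 and stem cell factor (encoded by Kitl) to blood stem cells, and give rise to bone-forming osteoblasts and marrow adipocytes. Bone formation by their descendants needs a collagen scaffold, secreted phosphoproteins that regulate mineral deposition, the kinase that phosphorylates them, and proteases that remodel the matrix.

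Library totals ran from 29540422 to 42784036 counts in PBS and from 31129352 to 42002065 in DOX. The names of the columns place PBS 1 to 4 and DOX1X 1 and 2 on flow cell 1, and DOX1X 3 and all 4 DOX4X libraries on flow cell 2. Flow cell 2 held no control, so within a flow cell the comparison rests on 2 treated libraries, and for DOX4X treatment and flow cell cannot be told apart. PBS 4 has a title that begins with the abbreviation for doxorubicin, while its treatment label and library name are those of a control. It was kept as PBS, and for each described gene whose call changed without it the adjusted p without it is given. All 8 markers of leptin receptor stroma (Lepr, Cxcl12, Kitl, Adipoq, Ebf3, Foxc1, Pdgfra and Pdgfrb) stood at 94.8 CPM (counts scaled to the library total) or more in every library. Markers of blood cells were present in every group and were on average higher in DOX. A blood-cell score, the mean over the marker lists for B lineage cells, neutrophils, erythroid cells and macrophages in centred log2 units, was -0.52 ± 0.338 (SD, n = 4) in PBS and 0.297 ± 0.506 (n = 7) in DOX.

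At 8 weeks after treatment, 5 genes passed the adjusted threshold of 0.05 by edgeR between treated and control libraries, and all 5 were lower after doxorubicin. They were Paqr5, a membrane progestin receptor, Chst8, a Golgi enzyme that adds sulfate to N-acetylgalactosamine on glycoproteins, the homeobox gene Evx1 with its antisense transcript Evx1os, and Fam20c, the Golgi kinase of secreted phosphoproteins. The DOX means were between 17.1% (Evx1os) and 43.7% (Paqr5) of the PBS means. No gene rose by edgeR: the counts were 0 higher (0% of the 17340 genes tested) and 5 lower (0.0288%) by edgeR's quasi-likelihood test with Benjamini-Hochberg adjustment at 0.05. At an unadjusted p under 0.05 there were 1072 higher genes (6.18%) and 1339 lower (7.72%), and at an adjusted p under 0.10 there were 24 higher (0.138%) and 66 lower (0.381%). The count depended on the tool: at an adjusted p of 0.05, DESeq2 called 188 genes higher and 307 lower, while limma-voom gave 4 and 39. A lower level in sorted bulk cells can come from fewer cells of a type or from less RNA per cell, and these cannot be told apart here.

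Paqr5 stood at 7.59, 8.37, 11.4 and 9.47 CPM in PBS 1 to 4. In the 7 DOX libraries it ran from 3.18 to 4.54 CPM with a median of 4.21. Every treated library was below every control. It fell by 1.19 in log2 units (SE 0.15, adjusted p = 0.0231 by edgeR), from a mean of 9.22 ± 1.67 (SD, n = 4) to 4.02 ± 0.521 (n = 7). The difference from PBS was -1.20 (SE 0.20) for DOX1X and -1.19 (SE 0.18) for DOX4X, and that between the schedules was 0.00 with a 95% interval from -0.42 to 0.43. Paqr7, another member of this progestin receptor family, was chosen after its values were seen and differed by -0.49 (SE 0.10, edgeR adjusted p = 0.0908), with 44.1 to 57.5 CPM in PBS and 31.6 to 46.0 in DOX. The nuclear progesterone receptor Pgr, also chosen after its values were seen, stood at 0.557, 1.33, 2.04 and 2.57 CPM in PBS against 0.0877 to 0.605 in DOX, where the highest treated library passed the lowest control (-2.50, SE 0.51, edgeR adjusted p = 0.0904).

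Chst8 read 2.15, 2.20, 3.88 and 1.57 CPM in PBS 1 to 4, against 0.263 to 0.692 with a median of 0.440 in DOX. The groups did not overlap. It fell by 2.40 (SE 0.31, edgeR adjusted p = 0.0231). Chst8, Evx1 and Evx1os had means below the 5 CPM that the rule for named genes asks for, and they are described because they are the remaining members of the 5, a choice made after their values were seen. The list of glycan sulfation, sialylation and proteoglycan synthesis, to which Chst8 belongs, had 25 of 40 genes lower, 13 of them at an unadjusted p under 0.05. Over all genes tested, 47.1% were lower and 7.72% were lower at that p. None of the other genes on the list passed the adjusted threshold. Sulf2, which trims sulfate from heparan sulfate outside the cell, stood at 20.8 to 39.0 CPM in PBS and 12.5 to 19.4 in DOX (-0.88, SE 0.16, edgeR adjusted p = 0.082). Sdc3, a heparan sulfate proteoglycan of the cell surface, stood at 431 to 590 CPM and 248 to 392 (-0.67, SE 0.13, edgeR adjusted p = 0.0864). Sulf2 passed without PBS 4 (edgeR adjusted p = 0.0194) and without DOX1X 3 (0.0485). St6gal2, a sialyltransferase, was at 4.73 to 9.35 CPM in PBS and 1.87 to 4.39 in DOX (edgeR adjusted p = 0.129).

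Evx1 lies beside the HoxA cluster, next to Hoxa13 and then Hoxa11 in the RefSeq gene order, and Hox genes of this end of the cluster pattern the distal limb in the embryo. It stood at 6.23, 6.47, 7.25 and 4.64 CPM in PBS 1 to 4 and at 0.585 to 1.97 with a median of 1.20 in DOX. Evx1os stood at 9.09, 7.13, 11.7 and 6.37 CPM in PBS and at 0.643 to 2.80 with a median of 1.32 in DOX. For both, the lowest control was above the highest treated library. Evx1 fell by 2.23 (SE 0.29) and Evx1os fell by 2.54 (SE 0.34), both with an edgeR adjusted p of 0.0231. The spans of the 2 genes overlap on opposite strands over 1335 bases in the GRCm38.p6 annotation. The strand setting of the counting is not given in the sources used here. Reads from the shared stretch cannot be told apart here, and the 2 genes may be 1 signal.

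Hoxa13 and Hoxa11, the 2 nearest cluster genes, did not pass the test but their groups did not overlap either. Hoxa13 stood at 9.52, 9.97, 12.9 and 10.6 CPM in PBS and at 3.30 to 7.73 with a median of 6.42 in DOX (-0.87, SE 0.21, edgeR adjusted p = 0.130). Hoxa11 stood at 12.4, 13.4, 15.8 and 16.4 CPM in PBS and at 6.55 to 12.3 with a median of 9.66 in DOX (-0.61, SE 0.18, edgeR adjusted p = 0.180). Over all genes tested, 1.6% had every treated library below every control and 0.923% had every one above (2.52% in all). The other 9 Hoxa genes tested had differences between -0.11 and 0.24, and none had an unadjusted p below 0.276. Hoxa10, next in the row, stood at 163 to 199 CPM in PBS and 161 to 195 in DOX. Hoxa9 stood at 51.3 to 65.3 CPM in PBS and 56.4 to 73.0 in DOX. In the wider list of homeobox genes of axial and limb patterning, 19 of 34 genes were higher and 15 lower, with a median of 0.07 (0.02 without PBS 1) beside 0.01 over all genes tested.

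**Figure D1:**
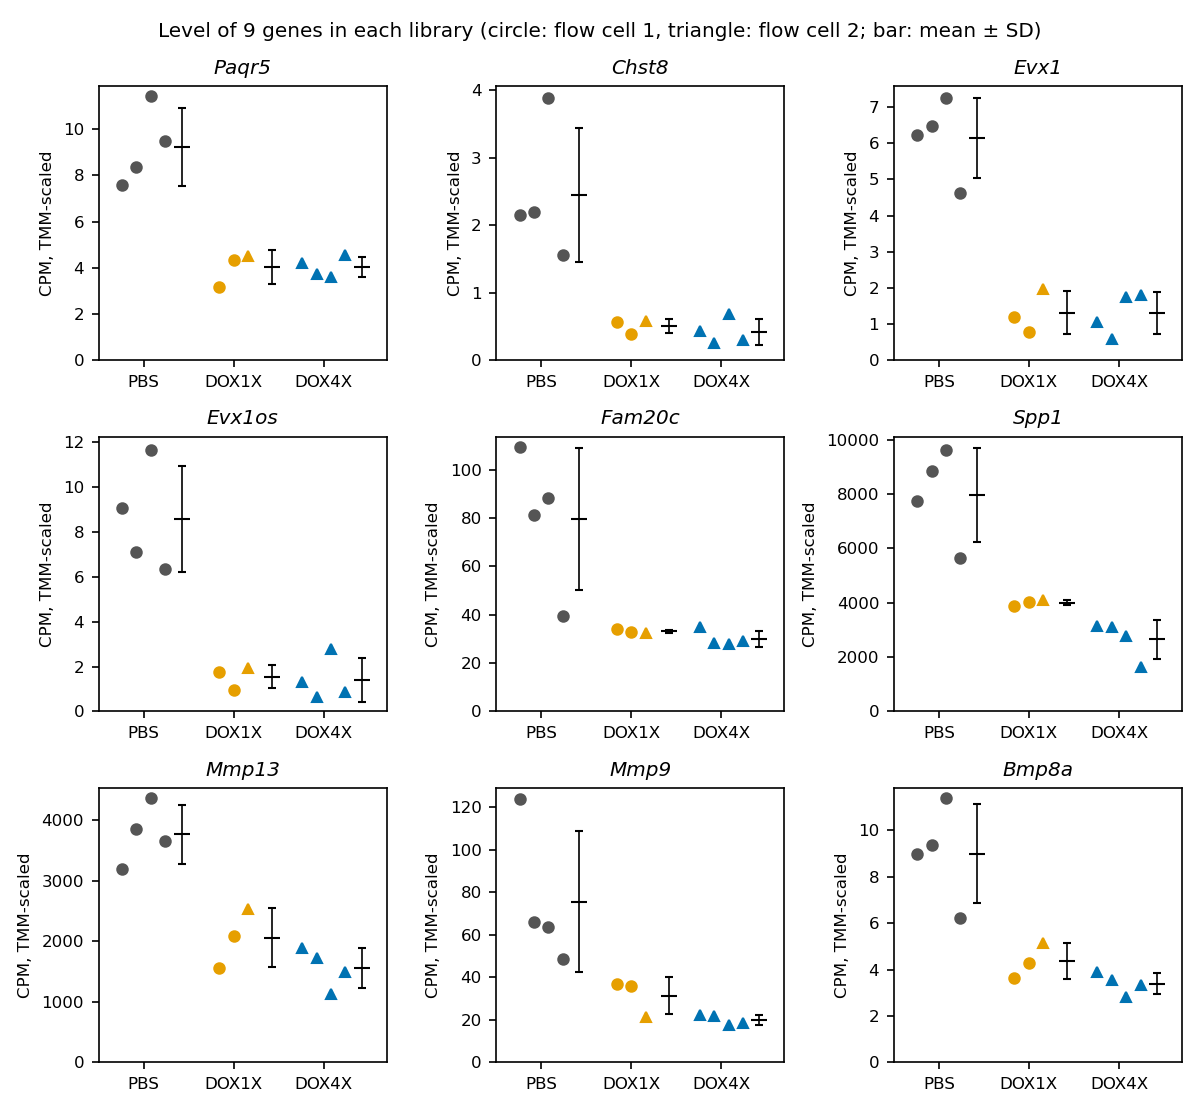
Level of 9 genes in each library, in CPM scaled by TMM factors, for PBS (grey), DOX1X (orange) and DOX4X (blue). Circles are flow cell 1 and triangles flow cell 2, and the bar at the right of each group is the mean ± SD. All treated libraries lie below all controls in each panel. PBS 4 is the lowest control for Fam20c (39.4 CPM), Spp1 (5641 CPM) and Mmp9 (48.5 CPM). PBS 4 is also the lowest for Chst8, Evx1, Evx1os and Bmp8a, while PBS 1 is the lowest for Paqr5 and Mmp13.

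Fam20c belongs to the bone side of the comparison. Its substrates include osteopontin (Spp1), bone sialoprotein (Ibsp) and dentin matrix protein (Dmp1), acidic proteins that bind mineral. Fam20c stood at 109, 81.2, 88.3 and 39.4 CPM in PBS 1 to 4. DOX libraries ran from 27.7 to 35.0 CPM with a median of 32.4, a narrow range in which DOX1X (33.1 ± 0.789, SD, n = 3) and DOX4X (30.04 ± 3.37, n = 4) lay side by side. Every treated library was below every control, but PBS 4 was much nearer to them than PBS 1 to 3 were. Fam20c fell by 1.34 (SE 0.19, edgeR adjusted p = 0.0389). Without PBS 4 its difference was -1.57 (edgeR adjusted p = 5.4e-05).

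Promoters are shown for Fam20c and for Spp1 and Mmp13, secreted products of bone cells whose groups did not overlap either, as context for genes that were lower together. Each is the RefSeq window from 250 bases before to 50 after the gene's start in GRCm38.p6, plus strand, with matches to the motifs searched in capitals: Fam20c is chr5:138754831-138755130, Spp1 is chr5:104434861-104435160 and Mmp13 is chr9:7272264-7272563.
Fam20c: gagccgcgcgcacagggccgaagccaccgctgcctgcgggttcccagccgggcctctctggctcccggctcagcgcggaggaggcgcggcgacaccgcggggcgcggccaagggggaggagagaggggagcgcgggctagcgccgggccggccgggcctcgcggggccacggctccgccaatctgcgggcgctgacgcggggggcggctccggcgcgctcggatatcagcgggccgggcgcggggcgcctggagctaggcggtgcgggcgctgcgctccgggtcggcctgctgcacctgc
Spp1: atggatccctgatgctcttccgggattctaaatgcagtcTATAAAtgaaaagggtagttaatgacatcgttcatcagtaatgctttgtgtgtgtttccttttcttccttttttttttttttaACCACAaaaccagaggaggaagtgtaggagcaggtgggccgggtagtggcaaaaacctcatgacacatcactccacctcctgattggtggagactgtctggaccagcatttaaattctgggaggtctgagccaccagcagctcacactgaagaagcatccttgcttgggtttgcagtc
Mmp13: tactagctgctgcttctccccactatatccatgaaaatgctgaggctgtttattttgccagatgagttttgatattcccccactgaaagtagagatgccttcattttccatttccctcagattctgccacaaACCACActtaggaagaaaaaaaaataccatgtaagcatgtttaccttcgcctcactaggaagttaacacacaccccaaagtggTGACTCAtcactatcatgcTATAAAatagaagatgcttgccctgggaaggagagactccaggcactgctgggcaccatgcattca
The motifs searched on both strands were AP-1 (TGANTCA), the Runx core (TGTGGT), the cyclic AMP response element (TGACGTCA) and the TATA box (TATAAA). They occur in 7.81%, 16.8%, 1.79% and 13.6% of the 32851 windows of the table. With position 0 as the first base of the transcript, Mmp13 holds an AP-1 match at -35 to -29, a Runx core on the opposite strand at -118 to -113 and a TATA box at -16 to -11. Spp1 holds a Runx core on the opposite strand at -128 to -123 and a TATA box at -211 to -206. The Fam20c window, 80.7% G and C, holds none of these letters. No measurement of binding or chromatin was made, and the matches are sequence context only.

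Spp1 stood at 7735, 8838, 9636 and 5641 CPM in PBS 1 to 4. It was at 3887, 4038 and 4091 CPM in DOX1X and at 3142, 3118, 2761 and 1622 in DOX4X. The 7 treated libraries were all below the controls, and the 4 of DOX4X were below the 3 of DOX1X. The pooled difference was -1.30 (SE 0.22, edgeR adjusted p = 0.070), short of the threshold. It passed at -1.43 without PBS 4 (edgeR adjusted p = 0.0233) and at -1.36 without DOX1X 3 (0.041). It was -0.99 (SE 0.23) for DOX1X and -1.58 (SE 0.21) for DOX4X, each against the same 4 PBS libraries, and -0.59 between the schedules (95% interval -1.07 to -0.11, edgeR adjusted p = 0.990).

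Mmp13, the collagenase of bone and cartilage, stood at 3186, 3847, 4370 and 3662 CPM in PBS. It ran from 1134 to 2530 CPM with a median of 1724 in DOX (-1.09, SE 0.18, edgeR adjusted p = 0.0638). Its groups did not overlap, and here PBS 4 lay among the other controls. Mmp9, a gelatinase, stood at 124, 65.9, 63.8 and 48.5 CPM in PBS and at 17.6 to 36.6 with a median of 21.8 in DOX (-1.60, SE 0.26, edgeR adjusted p = 0.0638). Bmp8a, a bone morphogenetic protein, stood at 8.99, 9.37, 11.4 and 6.24 CPM in PBS and at 2.80 to 5.16 with a median of 3.64 in DOX (-1.24, SE 0.19, edgeR adjusted p = 0.0516). Mmp9 and Bmp8a also had no treated library at the level of a control. These 3 genes passed when 1 of 2 libraries was left out: without PBS 4 the edgeR adjusted p was 0.0472 for Mmp13, 0.0194 for Mmp9 and 0.00934 for Bmp8a, and without DOX1X 3 it was 0.0131, 0.0498 and 0.0138. Timp1, a secreted inhibitor of such metalloproteinases, was lower in the same samples: 48.7 to 68.2 CPM in PBS, 33.1 to 47.1 in DOX1X and 23.4 to 27.9 in DOX4X (-0.87, SE 0.18, edgeR adjusted p = 0.0908).

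Dmp1 and Ibsp, the other substrates of Fam20c named above, did not separate the groups. Dmp1 stood at 164, 227 and 242 CPM in PBS 1 to 3 but at 41.3 in PBS 4, inside the DOX range of 28.5 to 68.1 (-1.73, SE 0.38, edgeR adjusted p = 0.102). Leaving PBS 4 out gave -2.06 (edgeR adjusted p = 0.00714). Ibsp stood at 5765 to 7998 CPM in PBS, 5241 to 7353 in DOX1X and 3696 to 5167 in DOX4X (-0.36, SE 0.18, edgeR adjusted p = 0.392). Its difference was -0.07 (SE 0.16) for DOX1X and -0.63 (SE 0.15) for DOX4X, with the pooled value between them.

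**Figure D2:**
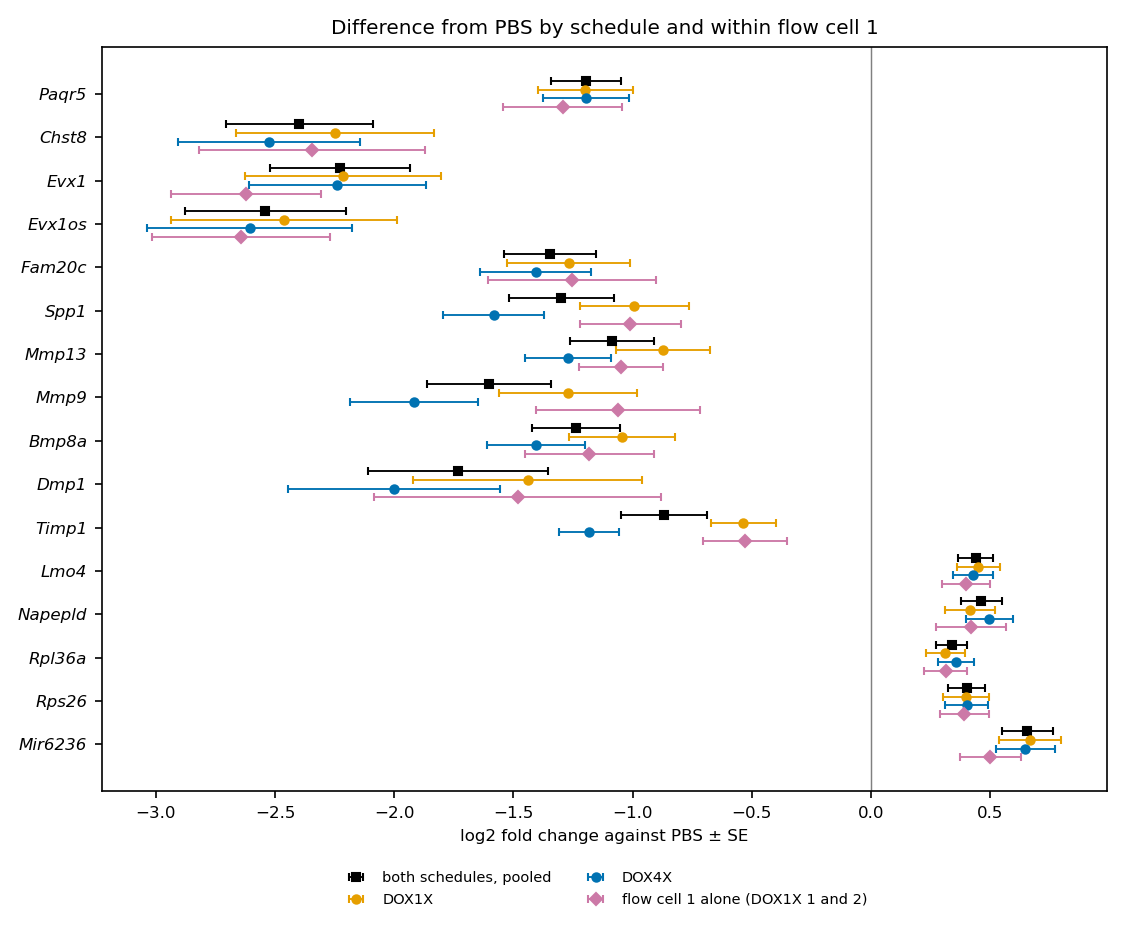
Log2 fold change against PBS ± SE for 16 genes, for both schedules pooled (black), DOX1X (orange), DOX4X (blue) and flow cell 1 alone (pink, DOX1X 1 and 2 against PBS). The values of a gene share the PBS libraries. Paqr5, Evx1 and Lmo4 differ from PBS by similar amounts in all 4 estimates, while Spp1, Mmp9 and Timp1 lie further from 0 in DOX4X than in DOX1X.

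Of the 27 osteoblast and bone matrix genes tested, 26 were lower in DOX and 1 was higher, beside 47.1% lower over all genes tested. Of the 26, 10 had an unadjusted p under 0.05, beside 7.72% of all genes tested that were lower at that p. This list and the others tallied here were chosen with earlier results of these data known, so the tallies are description only. Of the 27 genes, Fam20c alone passed the adjusted threshold. The median difference was -0.37, beside 0.01 over all genes tested. This median was -0.17 for DOX1X and -0.44 for DOX4X, it was -0.07 within flow cell 1, and it ran from -0.51 without PBS 4 to -0.17 without PBS 1. Of the lineage regulators, Runx2, the transcription factor that starts the osteoblast program, stood at 187 to 206 CPM in PBS and 156 to 201 in DOX (-0.17, SE 0.08, edgeR adjusted p = 0.352). Sp7, which acts after it, stood at 81.3 to 117 CPM and 78.6 to 130 (-0.11, SE 0.13). Alpl, the phosphatase that breaks down pyrophosphate, stood at 1363, 1139, 766 and 521 CPM in PBS and 599 to 868 in DOX (-0.37, SE 0.20). Col1a1, the main chain of bone collagen, was at 6421, 4464, 3345 and 832 CPM in PBS and 878 to 4187 in DOX (-0.46, SE 0.45). Bglap, osteocalcin, was at 162, 142, 106 and 42.99 CPM in PBS and 74.3 to 164 in DOX (0.00, SE 0.29). PBS 4 had the lowest control value for each of Sp7, Alpl, Col1a1 and Bglap, and the spread of the controls was wider than the difference between the groups.

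Of the remaining genes with an adjusted p under 0.10, Nipal1, a magnesium transporter, and Niban1, a stress-induced cytoplasmic protein, were lower in both schedules. Both were chosen after their values were seen. Nipal1 stood at 8.53, 5.57, 10.7 and 8.74 CPM in PBS and 1.43 to 3.74 with a median of 2.45 in DOX (-1.75, SE 0.27, edgeR adjusted p = 0.054), with -1.67 (SE 0.36) for DOX1X and -1.82 (SE 0.33) for DOX4X. Niban1 stood at 48.8 to 71.3 CPM in PBS and 29.9 to 41.2 in DOX (-0.70, SE 0.11, edgeR adjusted p = 0.0638), with -0.78 (SE 0.14) for DOX1X and -0.65 (SE 0.13) for DOX4X. In both, every treated library was below every control. Without PBS 4 the edgeR adjusted p was 0.042 for Nipal1 and 0.0322 for Niban1, and without DOX1X 3 it was 0.0152 and 0.0498, so that both then passed.

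Ank, Enpp1 and Enpp3 were picked from the genes with an adjusted p under 0.10 after their values were seen, belong to no list tallied here, and did not pass with all libraries. Ank, which exports pyrophosphate or its precursor, stood at 98.5, 73.9, 96.8 and 47.6 CPM in PBS and 36.1 to 55.1 in DOX (-0.85, SE 0.17, edgeR adjusted p = 0.0884). Enpp1, which makes pyrophosphate from ATP, stood at 266 to 394 CPM in PBS and 154 to 256 in DOX (-0.63, SE 0.13, edgeR adjusted p = 0.0908). Enpp3, an enzyme of the same family, stood at 148 to 193 CPM and 98.8 to 133 (-0.53, SE 0.09, edgeR adjusted p = 0.0734). For Enpp1 and Enpp3 the groups did not overlap. Ank passed without PBS 4 (edgeR adjusted p = 0.00714), and Enpp3 passed without PBS 4 (0.0207) and without DOX1X 3 (0.0498).

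Structural matrix genes were mostly lower, and none was called with all libraries. In the list of fibrillar collagens, microfibrils and other structural matrix, 43 of 47 genes were lower, 23 of them at an unadjusted p under 0.05. Over all genes tested, 47.1% were lower and 7.72% were lower at that p. Only 1 gene of the list had all 7 treated libraries below all controls, beside 1.6% of all genes tested. The median of the list was -0.32, with -0.19 for DOX1X, -0.40 for DOX4X and -0.10 within flow cell 1. Postn (periostin, a matricellular protein) stood at 692, 824, 805 and 277 CPM in PBS and 238 to 435 in DOX (-1.02, SE 0.24, edgeR adjusted p = 0.120), and passed at -1.27 without PBS 4 (edgeR adjusted p = 0.00714). Lum (lumican, a small proteoglycan on collagen fibrils) stood at 282 to 389 CPM and 173 to 302 (-0.58, SE 0.15). Col5a3, a minor fibrillar collagen chain, stood at 402 to 594 CPM and 258 to 423 (-0.54, SE 0.15). Mfap5, a microfibril protein, went the other way, from 4.30 to 7.84 CPM in PBS to 6.58 to 16.8 in DOX (1.01, SE 0.29, edgeR adjusted p = 0.181).

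Enzymes that modify collagen were lower in 25 of 27 cases, with a median of -0.18 (-0.07 within flow cell 1). Of these genes, 13 were lower at an unadjusted p under 0.05 and 4 had groups that did not overlap. Over all genes tested, 47.1% were lower, 7.72% were lower at that p, and 1.6% had every treated library below every control. Qsox1, an oxidase that forms disulfides, stood at 144 to 190 CPM in PBS and 86.3 to 125 in DOX (-0.61, SE 0.11, edgeR adjusted p = 0.0864). P3h2, a prolyl 3-hydroxylase, stood at 118 to 185 CPM and 79.9 to 110 (-0.57, SE 0.12, edgeR adjusted p = 0.0927). Loxl1 and Loxl4, lysyl oxidases that cross-link collagen and elastin, differed by -0.57 (SE 0.14) and -0.59 (SE 0.18). Matrix proteases and their inhibitors were lower in 30 of 39 cases (median -0.21, and -0.05 within flow cell 1), and lysosomal genes in 35 of 41 (median -0.14, -0.06 within flow cell 1 and -0.088 without PBS 1). Ctsb, a lysosomal cysteine protease on both of these lists, stood at 2230 to 2543 CPM in PBS and 1653 to 2055 in DOX (-0.39, SE 0.08, edgeR adjusted p = 0.0908). Lamp2, Ctsc and Atp6v1h, a lysosomal membrane protein, a cathepsin and a subunit of the proton pump, differed by -0.26, -0.46 and -0.17, each with groups that did not overlap.

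Of 53 tested genes of transforming growth factor beta and bone morphogenetic protein signalling, 40 were lower and 13 higher, with a median of -0.10 (-0.11 within flow cell 1). Tgfb3, a ligand, stood at 302, 336, 569 and 456 CPM in PBS and 117 to 350 in DOX (-1.14, SE 0.27, edgeR adjusted p = 0.123). Tgfbr3, the co-receptor betaglycan, stood at 1155 to 1453 CPM and 854 to 1139 (-0.43, SE 0.09, edgeR adjusted p = 0.0908). Skil, a repressor that the pathway itself induces, stood at 65.9 to 71.6 CPM and 47.4 to 63.3 (-0.37, SE 0.07, edgeR adjusted p = 0.0864). The groups of Tgfbr3 and of Skil did not overlap. Among guidance genes (23 of 36 lower, median -0.15), Slit2, a secreted ligand, differed by -0.86 (SE 0.17, edgeR adjusted p = 0.0864) and its receptor Robo1 by -0.47 (SE 0.11, edgeR adjusted p = 0.111). Among Wnt genes (21 of 34 lower, median -0.10), Wnt5b, a ligand, stood at 27.1 to 35.4 CPM in PBS and 16.1 to 24.2 in DOX (-0.55, SE 0.11, edgeR adjusted p = 0.0864). Itgb5, an integrin chain among matrix receptors (22 of 29 lower, median -0.11, but 0.06 within flow cell 1), stood at 306 to 517 CPM and 193 to 321 (-0.82, SE 0.15, edgeR adjusted p = 0.0819). Tgfb3 passed without DOX1X 3 (-1.36, edgeR adjusted p = 0.0188), and Slit2 (0.0194) and Itgb5 (0.0151) passed without PBS 4. The medians of these lists moved with single libraries: for growth factor signalling, guidance, Wnt and matrix receptors they were -0.16, -0.22, -0.15 and -0.18 without PBS 4 and -0.049, -0.0904, -0.0417 and -0.0421 without PBS 1.

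**Figure D3:**
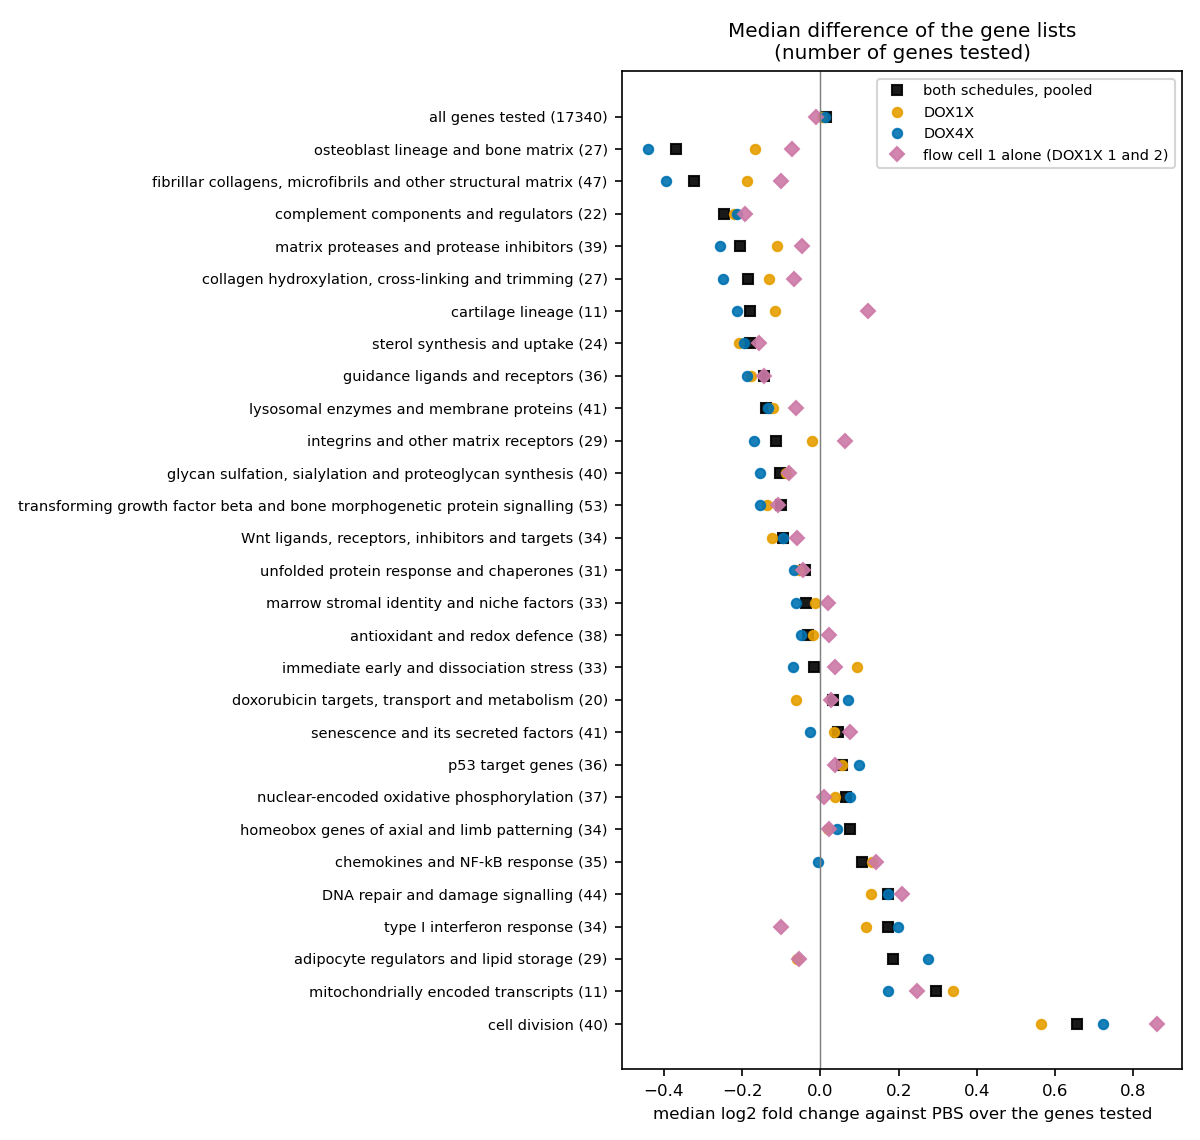
Median log2 fold change against PBS over the genes of each gene program list, without the cell type marker lists (number tested in brackets), for both schedules pooled (black squares), DOX1X (orange), DOX4X (blue) and flow cell 1 alone (pink diamonds). The bone, collagen and protease lists lie below 0 in all 4 estimates and nearer to 0 within flow cell 1, and of the lists plotted cell division lies highest in all 4, at 0.66 pooled.

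Niche factors and identity genes of the stroma did not separate treated from control cells. Cxcl12 stood at 58080, 53050, 51080 and 52480 CPM in PBS and ran from 46040 to 59770 with a median of 50800 in DOX (-0.06, SE 0.11). Lepr stood at 5431 to 7644 CPM and 3942 to 6626 (-0.32, SE 0.14, edgeR adjusted p = 0.352). Kitl stood at 949 to 1202 CPM and 1032 to 1298 (0.11, SE 0.09), and Csf1, a macrophage growth factor, at 887 to 1167 and 944 to 1213 (0.05, SE 0.10). For all 4 of these genes the ranges of the groups overlapped. Angpt1, a ligand of the endothelial receptor Tie2, differed by -0.06 (SE 0.10) and Vcam1, an adhesion molecule for blood cells, by 0.15 (SE 0.12). Foxc1 and Ebf3, transcription factors that maintain these stromal cells, differed by -0.23 (SE 0.11) and 0.47 (SE 0.18). Nes, an intermediate filament gene used to mark marrow stroma, had the smallest p of the list and stood at 5.10 to 8.47 CPM in PBS and 2.18 to 5.54 in DOX (-0.90, SE 0.24, edgeR adjusted p = 0.153). Bmp4, a ligand from the same list, stood at 132 to 226 CPM in PBS and 203 to 341 in DOX (0.49, SE 0.17). In all, 19 of 33 genes of the list were lower and 14 higher (median -0.04, and 0.00873 without PBS 1).

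Adipocyte and lipid genes were higher in 19 of 29 cases, with a median of 0.19. The median was 0.28 for DOX4X, -0.06 for DOX1X and -0.06 within flow cell 1, and it ran from 0.0825 without PBS 3 to 0.32 without PBS 1. Adipoq (adiponectin) stood at 2018 to 2722 CPM in PBS and 2196 to 2987 in DOX (0.12, SE 0.11). Pparg, the main regulator of the adipocyte program, differed by 0.02 (SE 0.15) for DOX1X and 0.47 (SE 0.14) for DOX4X. Its pooled value was 0.30 (SE 0.16, edgeR adjusted p = 0.424). Lpl, lipoprotein lipase, differed by 0.36 (SE 0.15, edgeR adjusted p = 0.303). Cebpa, a transcription factor of the adipocyte program, and Dgat1, which completes triglyceride synthesis, differed by 0.33 (SE 0.15) and 0.21 (SE 0.10), and Zfp423, a regulator of preadipocytes, by -0.29 (SE 0.09, edgeR adjusted p = 0.189). Fabp4, a fatty acid binding protein of adipocytes and endothelium, stood at 80.9 to 191 CPM in PBS, 87.6 to 512 over DOX, with means of 124 ± 58.7 (SD, n = 3) in DOX1X and 357 ± 127 (n = 4) in DOX4X. Its pooled difference was 0.95 (SE 0.46, edgeR adjusted p = 0.380), and within flow cell 1 it was -0.57. The list of endothelial markers had a median of 0.40, with -0.50 for DOX1X and 0.82 for DOX4X, 0.11 without PBS 4 and 0.70 without PBS 2. The part of endothelial RNA in the adipocyte values was not tested.

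No gene passed the test upward with all libraries. By the rule, the 5 with the smallest p among genes of 5 CPM or more were Mir6236, Lmo4, Napepld, Rpl36a and Rps26, and each had all 7 treated libraries above all controls. Mir6236, annotated as a microRNA gene and read here in a long-RNA library, stood at 39.4, 33.4, 45.4 and 38.1 CPM in PBS and 51.9 to 75.4 with a median of 59.4 in DOX (0.66, SE 0.11, edgeR adjusted p = 0.0638). Lmo4, a LIM-domain cofactor of transcription, stood at 72.6, 70.0, 84.2 and 74.8 CPM in PBS and 90.3 to 110 with a median of 104 in DOX (0.44, SE 0.07, edgeR adjusted p = 0.0672). The differences of Lmo4 were 0.45 (SE 0.09) in DOX1X and 0.43 (SE 0.08) in DOX4X, with an interval from -0.22 to 0.18 for the schedules. Mir6236 and Lmo4 passed without DOX1X 3 (edgeR adjusted p = 0.0278 and 0.0498). Napepld, which makes N-acylethanolamine lipids, stood at 15.03 to 19.1 CPM in PBS and 21.1 to 25.2 in DOX (0.46, SE 0.09, edgeR adjusted p = 0.0864), and passed without PBS 4 (0.0415). Rpl36a and Rps26 encode ribosomal proteins, and stood at 30.9 to 33.1 and 41.9 to 50.5 CPM in PBS against 36.3 to 44.4 and 52.1 to 67.0 in DOX (0.34, SE 0.07, and 0.40, SE 0.08). Ribosomal protein genes have processed copies elsewhere in the genome, and how reads shared with them were counted is not given in the sources used here.

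The genes of the p53 response did not separate the groups at 8 weeks. Cdkn1a, which encodes the p21 inhibitor of the cell cycle and is induced by p53, stood at 109, 133, 208 and 124 CPM in PBS and 94.0 to 201 with a median of 151 in DOX (0.04, SE 0.21). Mdm2, the ligase that p53 induces against itself, stood at 58.2 to 68.3 CPM in PBS and 59.3 to 68.0 in DOX (0.01, SE 0.07), and Trp53 at 79.9 to 110 and 86.6 to 109 (0.04, SE 0.10). Of 36 p53 target genes, 24 were higher and 12 lower with a median of 0.06 (0.0232 without PBS 2), and the smallest p values were those of Psrc1 (0.60, SE 0.25), Btg2 (0.35, SE 0.15) and Gdf15 (0.56, SE 0.25), none with an edgeR adjusted p below 0.315. Cdkn2a, whose p16 product marks senescent cells, was too low to test, at 0.0374 CPM on average in PBS and 0.0691 in DOX. Il6, a cytokine of the senescent secretory program, stood at 2.89 to 5.66 CPM and 2.50 to 5.53 (0.10, SE 0.23). The list of senescence and its secreted factors had 22 of 41 genes higher and 19 lower (median 0.04, and -0.0503 without PBS 2).

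Genes of doxorubicin targets, transport and metabolism were split evenly, 10 higher and 10 lower. Top2b, the topoisomerase II of resting cells, stood at 198 to 240 CPM in PBS and 182 to 249 in DOX (-0.04, SE 0.09). Top2a, the form of dividing cells, stood at 18.7 to 64.9 CPM and 34.8 to 115 (0.75, SE 0.36, edgeR adjusted p = 0.373). The metallothioneins Mt1 and Mt2, which bind metals and scavenge radicals, differed by 0.40 (SE 0.16) and 0.64 (SE 0.22). Rarg, a retinoic acid receptor, and Abcg2, a drug exporter, differed by -0.32 (SE 0.12) and -0.21 (SE 0.09). None of these 6 genes passed the test. In the antioxidant list (22 of 38 lower), Srxn1, which repairs oxidized peroxiredoxins, stood at 41.6 to 50.7 CPM in PBS and 28.8 to 37.3 in DOX (-0.43, SE 0.09, edgeR adjusted p = 0.0986). Gpx1, a glutathione peroxidase, and Txn1, thioredoxin, had all treated libraries above all controls (0.40, SE 0.10, and 0.24, SE 0.06).

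Cell division genes were higher in 40 of 40 cases (52.9% over all genes tested) with a median of 0.66. Of these, 7 had an unadjusted p under 0.05 (6.18% of all genes tested were higher at that p). Mki67, a marker of cycling cells, stood at 19.6, 27.9, 19.7 and 10.1 CPM in PBS and 15.1 to 53.3 with a median of 38.5 in DOX (0.77, SE 0.37, edgeR adjusted p = 0.373). Cdk1, Cenpa and Tk1, a mitotic kinase, a centromere histone and a kinase of nucleotide synthesis, differed by 0.78 (SE 0.25), 0.72 (SE 0.26) and 0.50 (SE 0.21). With the blood-cell score as a covariate the median of the list was -0.35, and the values of Mki67 and Top2a were -0.43 and -0.30. DNA repair genes were higher in 35 of 44 cases (median 0.17, and -0.02 with that covariate), led by Chek2, a checkpoint kinase (0.52, SE 0.15), Tdp2, which removes trapped topoisomerase II from DNA ends (0.21, SE 0.07), Pcna, the replication clamp (0.30, SE 0.10), and Prkdc, the kinase of end joining (0.31, SE 0.11). With the covariate, Chek2 was at 0.21, Tdp2 at 0.19, Pcna at 0.05 and Prkdc at 0.41.

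Markers of B lineage, neutrophil, erythroid and T and NK cells were higher in DOX as whole lists. The other marker lists were mixed or differed between the schedules. No marker of these cell types was called when all libraries were used. All 23 B lineage markers were higher, 18 at an unadjusted p under 0.05, beside 52.9% and 6.18% of all genes tested. The B lineage median was 1.03, with a summed level of 170 to 891 CPM in PBS, 891 to 1517 in DOX1X and 316 to 1388 in DOX4X. Cd79a, part of the B cell receptor, stood at 10.8 to 21.8 CPM in PBS and 20.1 to 65.1 in DOX, and Dntt, a polymerase of early lymphocytes, at 0.633 to 2.39 and 1.79 to 8.26. Of 20 neutrophil markers 19 were higher (median 1.06), with a summed level of 198 to 674 CPM in PBS, 259 to 952 in DOX1X and 281 to 1103 in DOX4X. The granule genes Ltf and Lcn2 differed by 2.22 (SE 0.82) and 1.34 (SE 0.42). All 19 erythroid markers were higher (median 0.95), with summed levels of 303 to 948, 506 to 1273 and 665 to 1636 CPM. The globin genes Hbb-bt and Hba-a2, which have near-identical copies, differed by 1.44 (SE 0.35) and 1.04 (SE 0.29). The 22 T and NK cell markers were all higher (median 1.05) at summed levels of 16.4 to 26.2, 23.9 to 46.7 and 23.0 to 51.6 CPM. Ccl5, a chemokine of T and NK cells, stood at 0.533 to 1.14 CPM in PBS and 1.02 to 3.06 in DOX (1.55, SE 0.31, edgeR adjusted p = 0.0864, and 0.0349 without DOX4X 3), and Lck, a T cell kinase, differed by 1.06 (SE 0.32). The ranges of PBS and DOX overlapped for the B lineage, neutrophil, erythroid and T and NK sums. Of 17 monocyte and macrophage markers 10 were higher (median 0.23, and 0.000162 without PBS 4), with Lyz2, a lysozyme of myeloid cells, at 1.05 (SE 0.38) and Cd163, a receptor of resident macrophages, at -0.58 (SE 0.22). Megakaryocyte markers (15 of 15 higher, median 0.61), among them Pf4, a platelet chemokine (0.68, SE 0.50), had medians of 1.11 for DOX1X and -0.04 for DOX4X, and the pooled median was -0.0357 without DOX1X 2 and 1.40 without PBS 1. Mural cell markers had a median of -0.07, with -0.53 for DOX1X, 0.17 for DOX4X, -0.81 within flow cell 1, -0.25 without PBS 3 and 0.32 without PBS 1. Fibroblast markers had a median of -0.15, with -0.13 for each schedule and 0.081 without PBS 1.

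Because blood-cell markers were higher in DOX, the fit was repeated with their score as a covariate. The differences of the called genes were then -1.17 for Paqr5, -2.40 for Chst8, -1.75 for Evx1, -2.24 for Evx1os and -1.51 for Fam20c, and no gene passed the adjusted threshold in that fit (0 of 17340, 0%, by edgeR), while 2753 genes (15.9%) had an unadjusted p under 0.05. The flow cell was handled likewise. With a flow cell term, which leaves the difference to DOX1X 1 and 2 against PBS, the values were -1.29 for Paqr5, -2.34 for Chst8, -2.62 for Evx1, -2.64 for Evx1os and -1.25 for Fam20c. No gene passed in that fit by edgeR (0%), and 1385 genes (7.99%) had an unadjusted p under 0.05. The 5 differences were about as large within flow cell 1, with 2 treated libraries, as in the pooled fit with 7. The 5 genes were chosen in the pooled fit, which holds these same libraries, so their similar size is no independent check.

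**Figure D4:**
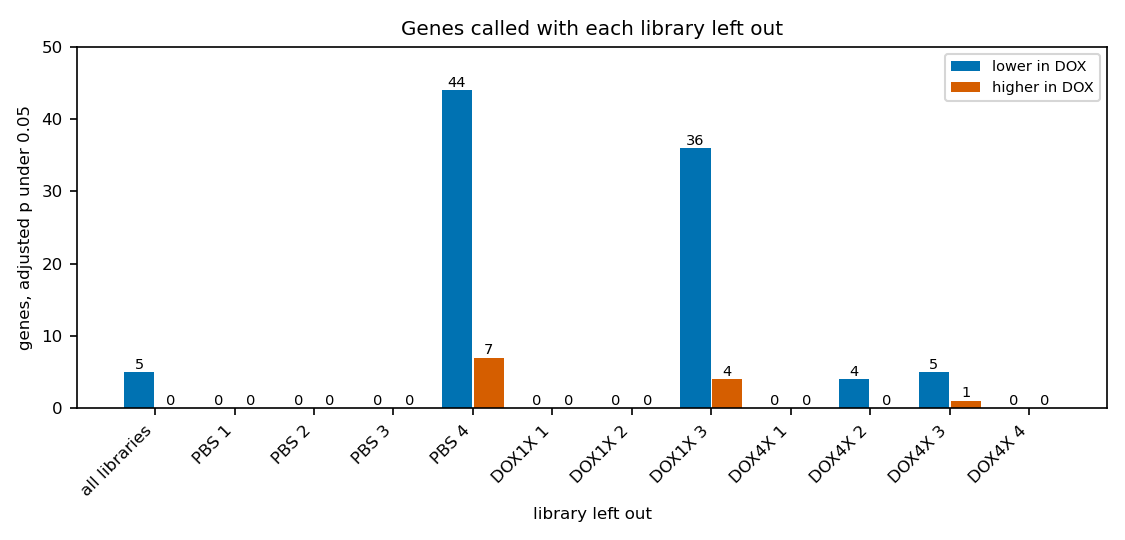
Number of genes with an edgeR adjusted p under 0.05, lower (blue) and higher (orange) in DOX, with all libraries and with each library left out in turn. The 5 lower genes of the full set become 0 without any of 7 libraries, 44 without PBS 4 and 36 without DOX1X 3.

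Leaving out single libraries changed the number of calls. It was 0 in both directions without PBS 1, PBS 2, PBS 3, DOX1X 1, DOX1X 2, DOX4X 1 or DOX4X 4, where the adjusted p of the 5 genes ran from 0.0503 to 0.177. It was 7 higher and 44 lower without PBS 4, and 4 higher and 36 lower without DOX1X 3. Over the 11 sets with a library left out, the difference of Paqr5 lay between -1.28 and -1.07, that of Chst8 between -2.56 and -2.09, that of Evx1 between -2.35 and -2.09, that of Evx1os between -2.77 and -2.36 and that of Fam20c between -1.57 and -1.16. Fam20c was also not called without DOX4X 2 (edgeR adjusted p = 0.0807) or DOX4X 3 (0.0775), where the other 4 were. All 5 called genes were among the 44 without PBS 4 and among the 36 without DOX1X 3, with 14 and 11 further genes described above.

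Both schedules went into 1 treated mean, and the direct test between them called 1 of 17838 genes (0.00561%), with 778 (4.36%) at an unadjusted p under 0.05. The gene was Ighv5-17, a segment of the immunoglobulin heavy chain. For the 5 called genes, the 95% intervals of DOX4X minus DOX1X were -0.42 to 0.43 (Paqr5), -1.19 to 0.63 (Chst8), -0.89 to 0.84 (Evx1), -1.13 to 0.84 (Evx1os) and -0.68 to 0.41 (Fam20c), and those of Chst8, Evx1 and Evx1os are wide. Against PBS on its own, DOX1X had 1 call (0.00561%) and DOX4X 26 (0.146%), with the same 4 controls in both. The DOX1X call was Ighv5-17 (edgeR adjusted p = 0.000129). For the 5 called genes of the pooled fit, the edgeR adjusted p was 0.440 to 0.504 in DOX1X. In DOX4X, all on flow cell 2, it was 0.0428 to 0.0485, so all 5 passed there. Timp1 had a DOX4X minus DOX1X difference of -0.65 (95% interval -0.94 to -0.35, edgeR adjusted p = 0.886), which did not pass the test.

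**Figure D5:**
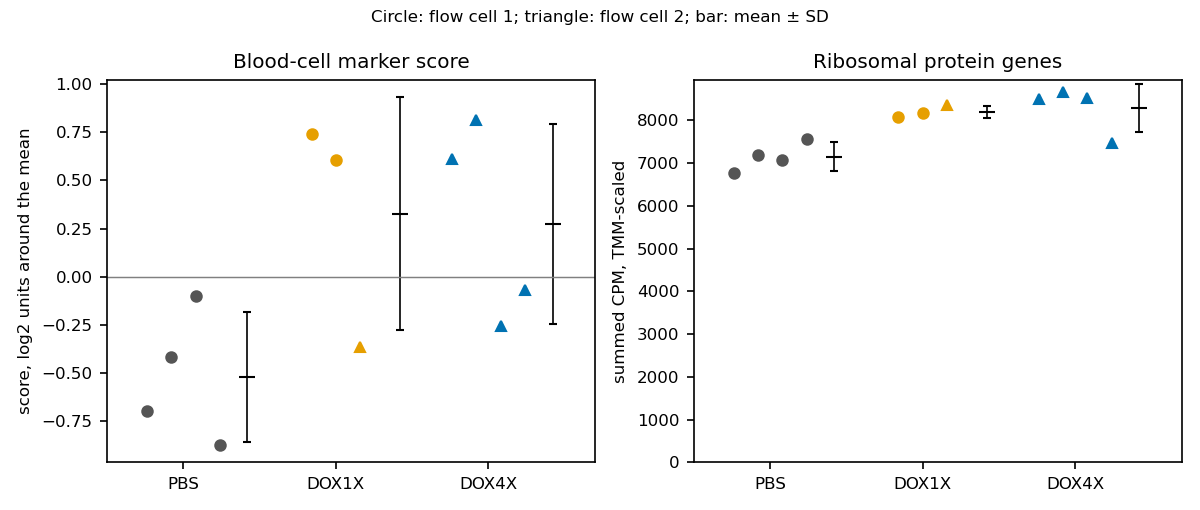
Blood-cell marker score (left, centred log2 units) and summed level of ribosomal protein genes (right, CPM scaled by TMM factors) in each library. Circles are flow cell 1, triangles flow cell 2, bars the mean ± SD. The score runs from -0.873 to -0.1 in PBS and from -0.364 to 0.812 in DOX, and ribosomal sums from 6761 to 7571 CPM and from 7468 to 8657 CPM.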

How the data were processed

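Poly(A) RNA of tdTomato-sorted marrow cells from 11 mice was made into SMART-Seq v4 Plus libraries, per the labels' protocols. The authors deposited 1 table of whole-number counts per gene, not normalized, for 24718 genes. The submitters' processing notes name GRCm39 as the build, Trim Galore 0.6.6 for trimming, FastQC 0.11.5 and MultiQC 1.7 for quality, STAR 2.7.9a, featureCounts 2.0.1 and SAMtools 1.17. Not given in the sources used here are the annotation, the strand setting and how multi-mapping reads were counted. RefSeq tables of GRCm38.p6 were used for gene order, overlap and promoter sequence only, and 24305 of the 24718 symbols were found in them.

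Genes were kept with filterByExpr, which left 17340 in the pooled fit and 17838 in the fit of 3 groups. Tested genes held 99.9% or more of every library's counts. Counts were scaled with TMM factors and tested with edgeR 4.0.16 (glmQLFit and glmQLFTest, R 4.3.3), two-sided, and p was adjusted by Benjamini-Hochberg over the whole table with a threshold of 0.05. The pooled fit had DOX (7 libraries) and PBS (4). The fit of 3 groups gave each schedule against PBS and the difference between schedules. SE is the fold change over the root of its F statistic, and levels are CPM scaled by TMM. Samples were grouped by their treatment label. Mice are numbered as biological replicates in the labels, and no 2 libraries of a group agreed within counting noise. Totals of 29540422 to 42784036 counts per library limit precision chiefly for genes of a few CPM, and SEs cover the spread between mice as well as counting.

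Genes were named by a rule: up to 15 rising and 15 falling furthest past the threshold (mean of 5 CPM or more, no overlap between groups), or the 5 with the smallest p where fewer than 5 pass, 27 key genes, and up to 4 genes per described list by smallest p. Clone names and antigen receptor segments were left out. The members of the comparison and the 39 lists (1125 genes, 1046 tested) were chosen with earlier results of these data known. The blood-cell score is the mean log2 CPM (prior count 2) of 4 marker lists, centred. The procedure was also run on simulated counts. These held no flow cell effect and no blood-cell difference, so that run cannot speak to either.

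Alternatives were RLE and upper quartile scaling, no filter, a filter of 5 CPM in 3 libraries, limma-voom (limma 3.58.1) with quality weights, DESeq2 1.42.0, a robust dispersion prior, equal weights for the schedules, a flow cell term, flow cell 1 alone, the replicate number as a block, the blood-cell score, marker genes left out, a threshold of 0.10 and each library left out.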

Additional observations from a re-analysis of the deposited data

Results flagged for a closer look

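The call between the schedules was Ighv5-17, a variable segment of the immunoglobulin heavy chain, with DOX4X minus DOX1X at -5.24 in log2 units (SE 0.40, adjusted p = 0.000493 by edgeR). It stood at 12.7, 14.0 and 5.81 CPM in DOX1X, at 0.211 to 0.385 in DOX4X and at 0.0334 to 0.162 in PBS. Reads of such segments can be shared with near-identical copies.

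In 345 checks of a gene, the total count or the blood-cell score within PBS, DOX4X or DOX, the highest or lowest library stood far from the others 16 times, where chance gives about 17.2. Within PBS, PBS 4 was low for Top2b (198 CPM, the others 235 to 240) and for Nes (5.10, the others 8.15 to 8.47), PBS 2 was high for Pcna (64.3, the others 53.3 to 54.9), and PBS 1 was high for Cdkn2a (0.0506, the others 0.0323 to 0.0334). Cdkn2a was too low to test, and its values rest on very few reads. Within DOX4X, DOX4X 4 was high for Tgfbr3 (1139 CPM), St6gal2 (3.16) and Dntt (4.68). DOX4X 3 was low for Enpp3 (98.8) and Ccl5 (1.02), which was also the lowest over all of DOX. DOX4X 1 was low for Mfap5 (6.58) and DOX4X 2 for Loxl4 (5.85). Within DOX, DOX1X 3 was low for Vcam1 (2513 CPM) and Cebpa (93.1), DOX1X 2 was high for Postn (435) and DOX4X 2 for Cd79a (65.1).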

How the results depend on the processing

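The 5 lower calls were 5 with RLE scaling, 6 with upper quartile scaling, 7 without a low-count filter or with marker genes left out, and 4 with the stricter filter or a robust dispersion prior. No gene was called higher in any of these 6. DESeq2 called 188 higher, 307 lower and 27 between schedules, and limma-voom 4 higher and 39 lower. Equal weights for the schedules gave 1 higher and 11 lower, and all 5 genes were among these. Flow cell 1 alone gave 3 higher and 2 lower, and none of the 5 genes was among these. The flow cell term and the blood-cell covariate each gave 0 lower. A threshold of 0.10 gave 24 higher and 66 lower. With a library left out there were 0 to 7 higher, 0 to 44 lower and 1 to 2 between schedules. Replicate numbers did not pair the libraries: of 10 same-number pairs 4 had a correlation of deviations over 0.1, and 2 of 11 libraries correlated best with their own number. With the replicate block, 2 genes were higher, 15 lower and 2 differed between schedules. No scaling moved the median of all genes beyond 0.03. The cause of these changes was not tested.

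Some uncalled differences changed sign. With the flow cell term they were 0.0606 for Cxcl12, 0.0233 for Angpt1, 0.16 for Sp7, 0.0637 for Col1a1, -0.32 for Bglap, 0.0615 for Ibsp, -0.0928 for Cdkn1a, 0.0796 for Top2b, 0.0324 for Hoxa10 and -0.56 for Fabp4. In flow cell 1 alone they were 0.057 for Cxcl12, 0.0193 for Angpt1, 0.16 for Sp7, 0.0614 for Col1a1, -0.33 for Bglap, 0.058 for Ibsp, -0.0966 for Cdkn1a, 0.0765 for Top2b, 0.0289 for Hoxa10 and -0.57 for Fabp4. With the blood-cell covariate they were -0.0357 for Bglap, -0.00686 for Mdm2, -0.13 for Trp53, -0.30 for Top2a, -0.12 for Il6, -0.43 for Mki67 and 0.00664 for Hoxa10. Bglap was at -0.0105 without a filter, -0.0408 with limma-voom and -0.0189 with equal weights, Hoxa10 at 0.0103 with the stricter filter and Cdkn1a at -0.055 with limma-voom. With a library left out, the values ran for Bglap from -0.27 to 0.22, for Cdkn1a from -0.0705 to 0.28, for Csf1 from -0.0106 to 0.12, for Hoxa10 from -0.0666 to 0.0333, for Il6 from -0.0473 to 0.28, for Mdm2 from -0.0312 to 0.051, for Top2b from -0.10 to 0.00425 and for Trp53 from -0.041 to 0.11.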

Other observations

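Ribosomal protein genes, a group chosen after their values were seen, were higher in DOX in 79 of 84 cases, 66 of them at an unadjusted p under 0.05 (6.18% of all genes tested were higher at that p), with a median of 0.22 beside 0.01 over all genes tested. The median was 0.21 for DOX1X, 0.24 for DOX4X, 0.19 with the flow cell term and 0.24 with the blood-cell covariate. The summed level of the group was 6761, 7187, 7082 and 7571 CPM in PBS 1 to 4, 8084, 8166 and 8354 in DOX1X, and 8497, 8657, 8532 and 7468 in DOX4X. DOX4X 4 was the only treated library below a control. In 21 of the genes every treated library was above every control (0.923% of all genes tested were so, 160 genes), among them Rps29 (0.32, SE 0.06, edgeR adjusted p = 0.0864). No ribosomal protein gene passed the adjusted threshold of 0.05.

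All 11 mitochondrially encoded transcripts tested were higher in DOX (median 0.30, and 0.25 with the flow cell term), with summed levels of 3251 to 4246 CPM in PBS, 4090 to 5399 in DOX1X and 3549 to 5196 in DOX4X. Of 24 sterol genes 19 were lower (median -0.18, and -0.0638 without PBS 2), and of 22 complement genes 16 (median -0.25, and -0.0194 without PBS 3). Of type I interferon genes 26 of 34 were higher, with a median of 0.17 in the pooled fit and -0.10 within flow cell 1, and the pooled median was -0.00168 without DOX4X 4. None of the genes on these 4 lists was called.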
